A study of Rattus norvegicus with 12 samples.

Results

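Macrophages and other myeloid cells reside in skeletal muscle and enter it after injury, and 34 genes that mark these cells were followed here across denervated rat gastrocnemius. The genes were chosen by name as a marker panel, with earlier results of these data known. Their counts beside shares of all probe sets are therefore description and no test of the panel. Each gene was read from the probe set with the highest mean among those whose annotation names that gene alone. All 34 had such a probe set on the array, among 14217 genes that had one. Of the 34, 31 passed a filter on low signal and were tested, while Itgam, Cx3cr1 and C3ar1 lay below it.

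Male Wistar-Hannover rats had the left sciatic nerve transected, and every sample was gastrocnemius of the denervated limb, so no innervated muscle stands among the groups. The 4 groups of 3 samples were nandrolone at day 35, vehicle at day 35, nandrolone at day 7 and vehicle at day 7. Nandrolone, an anabolic androgen, or its vehicle was given for 7 days before each collection, from the day of surgery in the day 7 groups and from 29 days after surgery in the day 35 groups. Day 35 and day 7 groups therefore differ in time since denervation and share the length of dosing. The labels number the samples within a group without stating that each is a separate animal, so p-values measure the spread between these samples. Values are log2 levels, log2 of the array signal plus 16, normalised between the 12 arrays, and the 3 arrays per group limit the precision.

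Macrophages arise from blood monocytes and from resident precursors, and the receptor for colony-stimulating factor 1 keeps them alive. The chemokine CCL2 draws monocytes from blood into injured tissue. In muscle, macrophages clear debris by phagocytosis and release factors that act on satellite cells, fibroblasts and the degenerating nerve stump.

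Ccl2 and Gpnmb were called lower at day 35 than at day 7 under vehicle, 2 of 31 members, against 2.17% of all probe sets. A fit of the 2 vehicle groups alone called 15 of 31 lower, against 6.19% of all probe sets there. The counts that follow are again from the fit of all 12 arrays. Gpnmb alone was called lower under nandrolone, 1 of 31, against 0.403%. Over both treatments together 5 of 31 were called lower, adding Rac2, Tyrobp and Csf1r, against 6.07%. Those added lost the call in 9, 9 and 11 of 12 fits that left out 1 array. Gpnmb lost its call in 5 of 12 such fits under vehicle and 10 of 12 under nandrolone. Vehicle day 35 muscle had the lowest mean of the 4 groups in 30 of the 34 members, and in 29 of the 31 tested ones, against 27.7% of all 18625 tested probe sets. Nandrolone day 7 muscle had the highest mean in 23 of the 34, and in 21 of the 31 tested ones, against 18.3% of all. Replicate 3 of that group carried much of this: it was the highest of its group in 30 of the 31, and without it nandrolone muscle was lower than vehicle muscle at day 7 in 26 of the 31. No member passed the test between nandrolone and vehicle on either day. Cd68, Adgre1, Ptprc and C1qa to C1qc were called in no comparison of the reported fit. In whole muscle, fewer cells of a type, less RNA per cell and RNA from other cell types cannot be told apart.

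**Figure D1:**
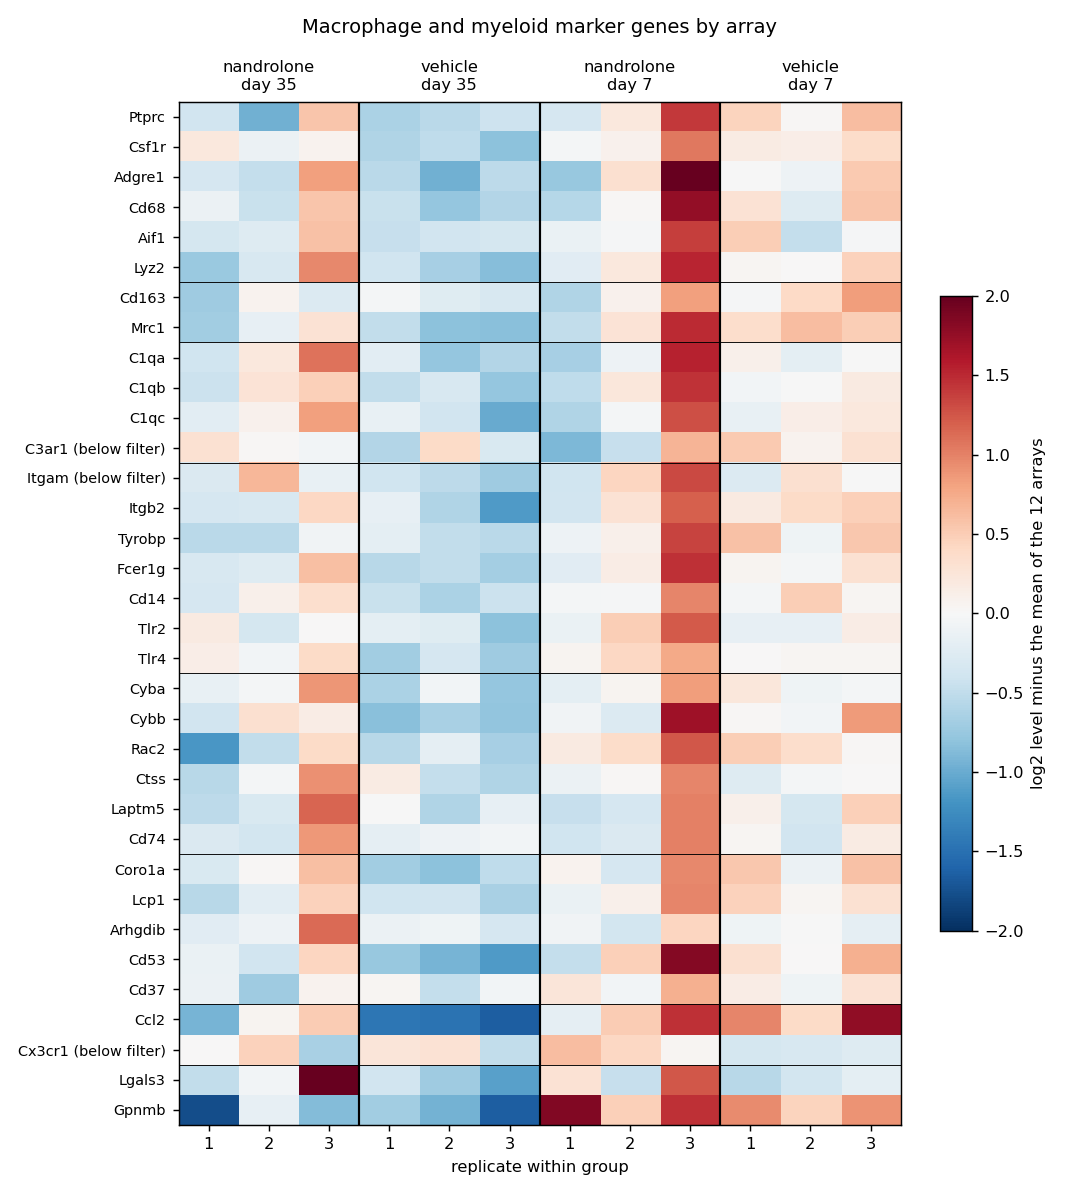
Log2 level of each of the 34 members minus its mean over the 12 arrays, with arrays as columns by group and replicate and members as rows by role. Colours stop at 2 in either direction, and the third array of each nandrolone group is the warmest column of its group.

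Promoters were examined because transcription of many of these genes in macrophages uses PU.1, a factor of myeloid cells that binds a purine-rich core. RefSeq promoters of the GRCr8 build, 250 bases before to 50 after the transcription start, were at hand for 24 of the 34 members. Gpnmb lies at chr4:79340878-79341177 on the plus strand, Mrc1 at chr17:82157475-82157774 on the plus strand, Cd68 at chr10:54882392-54882691 on the minus strand and Cybb at chrX:16065016-16065315 on the minus strand. The sequences below run 5′ to 3′ along the gene, and capitals mark GAGGAA or its reverse complement TTCCTC. They are shown for a member that fell with time, a scavenger receptor, the classical macrophage marker and a phagocyte oxidase subunit.
Gpnmb: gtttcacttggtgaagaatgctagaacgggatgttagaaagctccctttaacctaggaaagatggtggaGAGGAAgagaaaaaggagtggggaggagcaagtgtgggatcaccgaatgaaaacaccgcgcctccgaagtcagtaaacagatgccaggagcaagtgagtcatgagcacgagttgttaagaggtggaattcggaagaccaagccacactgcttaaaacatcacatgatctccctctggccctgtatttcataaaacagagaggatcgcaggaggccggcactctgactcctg
Mrc1: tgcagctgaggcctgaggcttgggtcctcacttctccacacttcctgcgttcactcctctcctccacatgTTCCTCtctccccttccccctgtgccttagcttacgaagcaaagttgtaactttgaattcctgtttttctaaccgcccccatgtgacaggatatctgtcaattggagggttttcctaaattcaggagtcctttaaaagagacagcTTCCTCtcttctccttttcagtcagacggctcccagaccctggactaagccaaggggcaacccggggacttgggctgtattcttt
Cd68: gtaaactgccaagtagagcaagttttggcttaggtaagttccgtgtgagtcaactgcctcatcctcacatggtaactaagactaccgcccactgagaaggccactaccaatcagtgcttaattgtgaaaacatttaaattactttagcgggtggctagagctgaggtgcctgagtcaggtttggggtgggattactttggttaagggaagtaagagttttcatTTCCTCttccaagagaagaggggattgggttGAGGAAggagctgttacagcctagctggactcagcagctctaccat
Cybb: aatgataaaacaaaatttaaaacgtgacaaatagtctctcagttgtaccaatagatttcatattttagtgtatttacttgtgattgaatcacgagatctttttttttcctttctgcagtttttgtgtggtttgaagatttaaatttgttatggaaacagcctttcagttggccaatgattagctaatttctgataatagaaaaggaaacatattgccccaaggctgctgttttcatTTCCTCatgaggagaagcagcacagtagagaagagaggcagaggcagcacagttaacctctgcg

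GAGGAA on either strand was found in 17 of the 24 member promoters, 70.8%, against 27.6% of all 33469 promoters in the table. TGANTCA, the AP-1 site, was found in 4 of the 24 members, 16.7%, against 7.33% of all promoters. A degenerate NF-kappaB site was also found in 4 members, against 5.0% of all. TCANGTGA, bound by the MiT family, was found in the Gpnmb and Ctss promoters, 8.33% of the members, against 3.93% of all. The Gpnmb promoter held GAGGAA 181, TGANTCA 87 and TCANGTGA 23 bases before the start. TTGCNNAA, a C/EBP half-site, was found in 12.5% of the members and 10.6% of all promoters, and TATAAA in 8.33% of the members and 14.2% of all. These matches, searched on both strands, describe letters in a window, and binding was not measured.

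Day 35 against day 7 under vehicle asks how the markers differ between early and prolonged denervation. All 31 tested members had a lower mean at day 35, against 50.4% of all probe sets, with a median log2 change of -0.68 against -0.00 over all. Past the threshold, 2 of the 31 fell, Ccl2 and Gpnmb, against 2.17% of all probe sets called lower and 5.61% called in either direction (limma, Benjamini-Hochberg adjusted p under 0.05 over all probe sets). This count depended on the fit. With the 2 vehicle groups alone, 15 of the 31 were called lower at the same median, against 6.19% of all probe sets, while on the scale as deposited no member was called. In the fit of all 12 arrays the further counts were as follows. At an unadjusted p under 0.05, 12 members were lower, against 10.8% of all. The arrays of the groups did not overlap, with day 35 lower, in 22 of the 31 members, against 16.7% of all probe sets.

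Ccl2 (probe set 1367973_at), the monocyte-attracting chemokine, fell most. Its levels were 6.73, 7.73 and 8.18 in nandrolone and 6.22, 6.19 and 6.02 in vehicle muscle at day 35, against 7.48, 8.17 and 9.13 in nandrolone and 8.64, 8.04 and 9.43 in vehicle muscle at day 7. The 3 vehicle day 35 arrays lay close together and below the other 9. Under vehicle the log2 change was -2.56 ± 0.45 (SE), a fold of 0.170, with a limma adjusted p of 0.00987, day 35 lower in all 3 arrays than any at day 7. Under nandrolone the day 35 level stood 0.71 ± 0.45 (SE) lower on the log2 scale, with a limma adjusted p of 0.496, and the groups overlapped. The test of the difference between these changes, the interaction, gave 1.85 ± 0.63 (SE) with an unadjusted limma p of 0.0123 and an adjusted p of 0.928, so a difference between treatments was not shown.

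Gpnmb (1368187_at) encodes a transmembrane glycoprotein of lysosome-rich phagocytes. Its levels were 8.40, 10.02 and 9.31 in nandrolone and 9.48, 9.23 and 8.53 in vehicle muscle at day 35, against 12.03, 10.64 and 11.64 in nandrolone and 11.12, 10.62 and 11.07 in vehicle muscle at day 7. Every day 35 array lay below every day 7 array, under either treatment. Within nandrolone day 7 muscle, Gpnmb was highest in replicate 1, while replicate 3 was highest in 30 of the 31 tested members. Cd68 (6.69), Adgre1 (5.87) and C1qa (8.14) were lowest of that group in replicate 1. Which cells carried the Gpnmb signal was not tested. The log2 change was -1.86 ± 0.41 (SE) under vehicle, a fold of 0.276, with a limma adjusted p of 0.0244. The call under vehicle was lost without vehicle day 35 replicate 1 (limma adjusted p 0.057) or replicate 3 (0.0908), and without vehicle day 7 replicate 1 (0.0831), replicate 2 (0.0644) or replicate 3 (0.0956), with changes of -1.58 to -2.06.

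Under nandrolone, day 35 muscle was also lower than day 7 muscle in 25 of the 31 members, against 51.1% of all probe sets, with a median log2 change of -0.42 against -0.01 over all probe sets. Without nandrolone day 7 replicate 3, 14 of the 31 were lower, against 51.9% of all probe sets, and the median was 0.051. Gpnmb alone fell past the threshold, 1 of 31, against 0.403% of all probe sets called lower and 0.677% called either way, and 3 members were lower at an unadjusted p under 0.05, against 8.06% of all. The Gpnmb change was -2.19 ± 0.41 (SE), a fold of 0.219, with a limma adjusted p of 0.038. With the replicate number as a block, the adjusted p was 0.0561, and leaving out single arrays kept the call only without nandrolone day 35 replicate 2 (0.0153) or vehicle day 35 replicate 3 (0.0449). Elsewhere the limma adjusted p reached up to 0.16, without nandrolone day 7 replicate 1, and the change stayed between -2.59 and -1.78. Gpnmb was also the single member whose nandrolone arrays did not overlap between days, against 9.2% of all probe sets lower in that way.

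**Figure D2:**
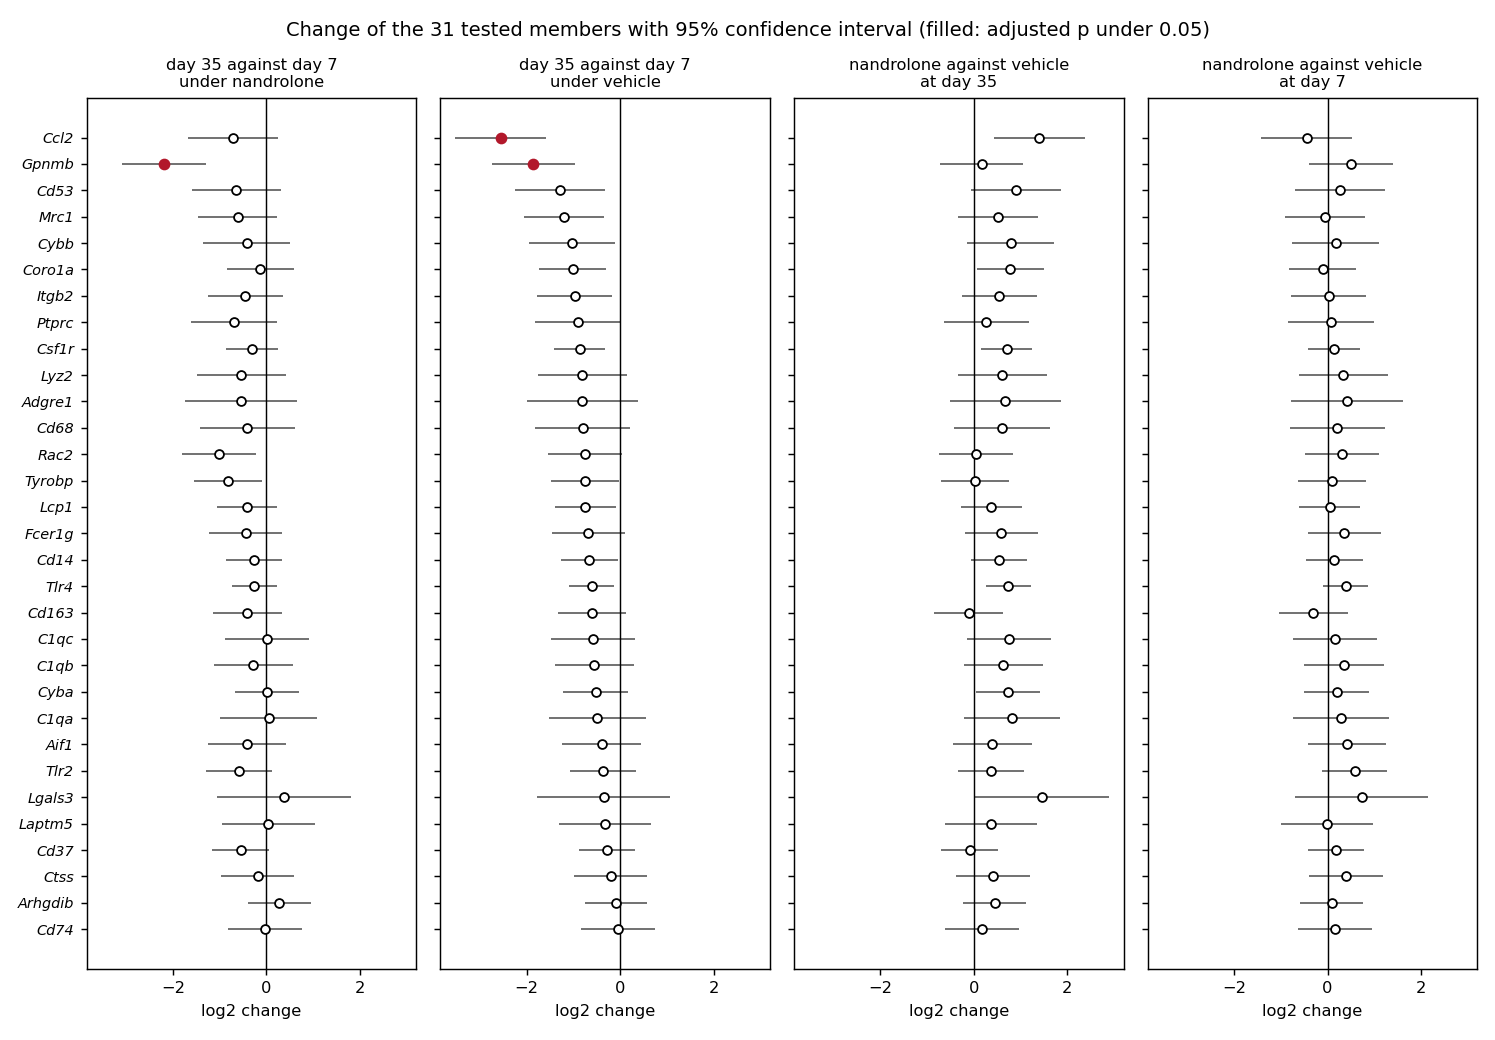
Log2 change of each of the 31 tested members with its 95% confidence interval, for day 35 against day 7 under nandrolone and under vehicle and for nandrolone against its vehicle on each day. Filled points passed an adjusted p of 0.05, and these are Gpnmb in both comparisons of days and Ccl2 under vehicle.

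Averaged over both treatments, 5 of the 31 members fell with time, against 6.07% of all probe sets called lower and 12.6% called either way. Gpnmb changed by -2.03 ± 0.29 (SE, limma adjusted p 0.00169) and Ccl2 by -1.64 ± 0.32 (SE, limma adjusted p 0.0068), and leaving out any 1 array kept both. Rac2, Tyrobp and Csf1r had adjusted p just under the threshold.

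Rac2 (1372404_at) is the small GTPase of blood cells that activates the phagocyte oxidase. Its levels were 5.41, 6.08 and 6.95 in nandrolone and 6.02, 6.39 and 5.90 in vehicle muscle at day 35, against 6.74, 6.93 and 7.82 in nandrolone and 7.06, 6.92 and 6.60 in vehicle muscle at day 7. The vehicle days did not overlap, while the nandrolone days did through the third day 35 array. The change over both treatments was -0.89 ± 0.26 (SE, limma adjusted p 0.0415), and the call was lost in 9 of 12 fits that left out 1 array, with adjusted p up to 0.0908.

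Tyrobp (1374730_at) is the signalling adaptor of activating receptors on myeloid and natural killer cells. Its levels were 6.55, 6.53 and 7.01 in nandrolone and 6.88, 6.59 and 6.54 in vehicle muscle at day 35, against 6.98, 7.18 and 8.43 in nandrolone and 7.66, 6.99 and 7.63 in vehicle muscle at day 7. The change was -0.79 ± 0.24 (SE, limma adjusted p 0.0456), with -0.83 ± 0.34 (SE) under nandrolone and -0.76 ± 0.34 (SE) under vehicle. The call was lost in 9 of 12 fits that left out 1 array, with adjusted p up to 0.105.

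Csf1r (1388784_at) is the colony-stimulating factor 1 receptor. Its levels were 8.54, 8.21 and 8.40 in nandrolone and 7.73, 7.81 and 7.50 in vehicle muscle at day 35, against 8.28, 8.41 and 9.39 in nandrolone and 8.50, 8.47 and 8.70 in vehicle muscle at day 7. The vehicle day 35 arrays lay below the other 9. The change over both treatments was -0.59 ± 0.18 (SE, limma adjusted p 0.0486), with -0.31 ± 0.25 (SE) under nandrolone and -0.87 ± 0.25 (SE) under vehicle. Leaving out 1 array ended the call in 11 of 12 fits, with adjusted p up to 0.112, and it held without nandrolone day 7 replicate 1. With the replicate number as a block the call was also lost, at a limma adjusted p of 0.0503.

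The other markers of identity were read array by array. Cd68 (1375010_at), a lysosomal glycoprotein of macrophages, had 7.14, 6.82 and 7.82 in nandrolone and 6.81, 6.48 and 6.68 in vehicle muscle at day 35, against 6.69, 7.29 and 9.02 in nandrolone and 7.56, 7.01 and 7.82 in vehicle muscle at day 7. Its nandrolone days overlapped and its vehicle days did not, but the vehicle change of -0.80 ± 0.47 (SE) had a limma adjusted p of 0.334. Adgre1 (1381311_at), the F4/80 antigen, had 6.28, 6.14 and 7.44 in nandrolone and 6.08, 5.66 and 6.10 in vehicle muscle at day 35, against 5.87, 6.94 and 8.67 in nandrolone and 6.61, 6.52 and 7.14 in vehicle muscle at day 7. The nandrolone day 7 arrays spanned the lowest and the highest of the day 7 values. Ptprc (1390798_at), the common leukocyte antigen CD45, had 6.15, 5.57 and 7.07 in nandrolone and 5.89, 5.98 and 6.11 in vehicle muscle at day 35, against 6.19, 6.74 and 7.94 in nandrolone and 6.97, 6.56 and 7.14 in vehicle muscle at day 7. Ptprc under vehicle changed by -0.90 ± 0.42 (SE, limma adjusted p 0.224), with no overlap between the days. Aif1, the actin-binding protein Iba1, and Lyz2, lysozyme, differed by -0.40 and -0.81 under vehicle, and neither passed the test.

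The scavenger receptors mark macrophages that reside in muscle or take up haemoglobin and glycoproteins. Mrc1 (1392648_at), the mannose receptor, had 7.50, 8.02 and 8.48 in nandrolone and 7.71, 7.37 and 7.36 in vehicle muscle at day 35, against 7.70, 8.47 and 9.68 in nandrolone and 8.55, 8.81 and 8.68 in vehicle muscle at day 7. Under vehicle the days did not overlap and the change was -1.20 ± 0.39 (SE, limma adjusted p 0.0926). Cd163 (1393917_at), the haemoglobin scavenger receptor, had 5.95, 6.74 and 6.38 in nandrolone and 6.63, 6.42 and 6.34 in vehicle muscle at day 35, against 6.06, 6.75 and 7.48 in nandrolone and 6.64, 7.07 and 7.50 in vehicle muscle at day 7. The lowest vehicle day 7 array exceeded the highest vehicle day 35 array by a narrow margin, and the change of -0.61 ± 0.34 (SE) had a limma adjusted p of 0.307.

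**Figure D3:**
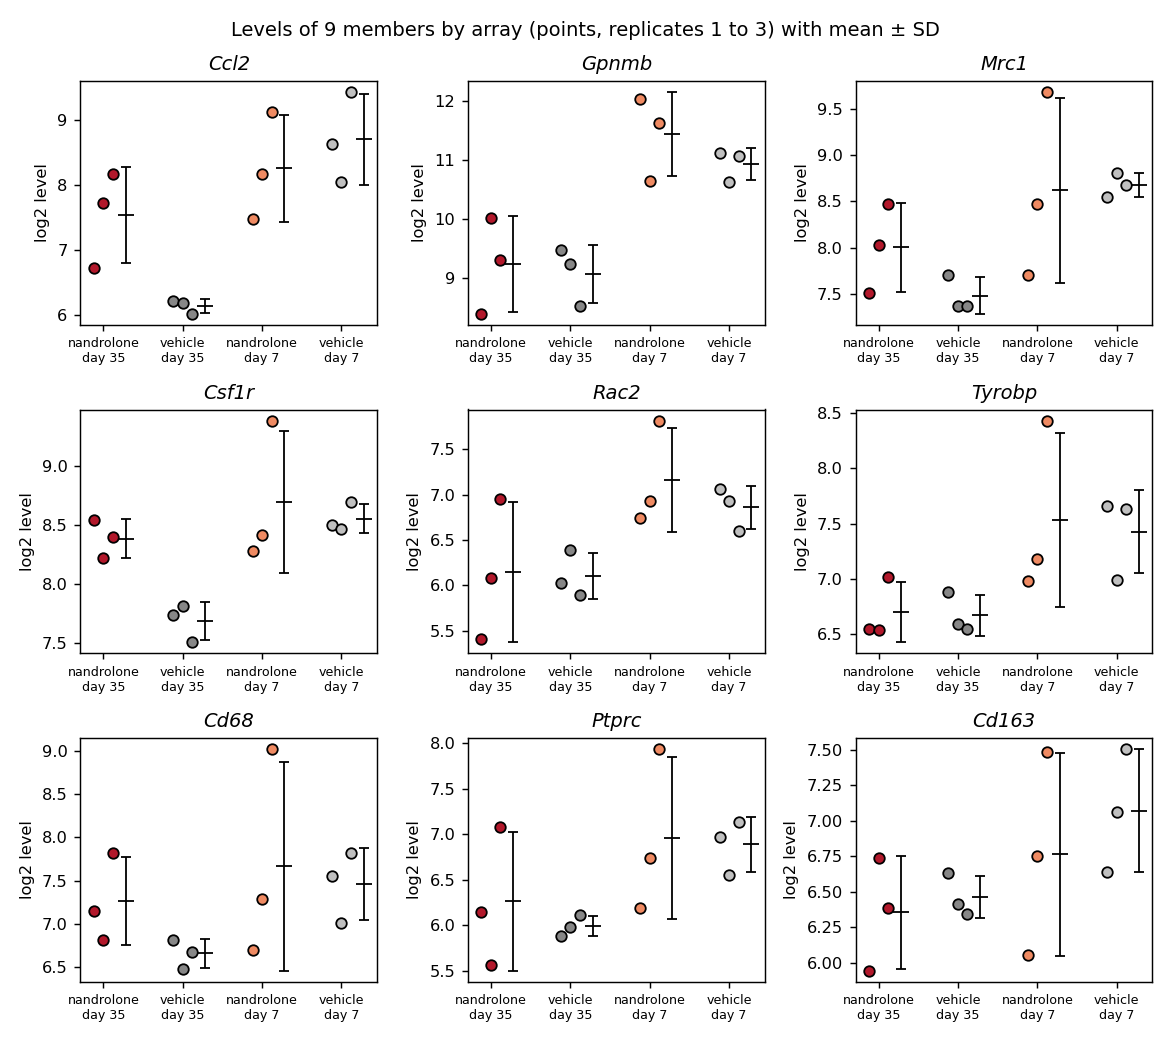
Log2 levels of 9 members in each of the 12 arrays, with the mean and SD of each group, groups running from nandrolone day 35 and vehicle day 35 to nandrolone day 7 and vehicle day 7. The vehicle day 35 arrays of Ccl2 sit at 6.02 to 6.22, below the other arrays, and nandrolone day 7 replicate 3 is the highest point for Mrc1 and Csf1r, at 9.68 and 9.39.

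The complement genes encode the 3 chains of C1q, made in tissue mainly by macrophages, and the receptor for C3a. C1qa (1376652_at) had 8.41, 9.02 and 9.91 in nandrolone and 8.61, 8.05 and 8.23 in vehicle muscle at day 35, against 8.14, 8.71 and 10.35 in nandrolone and 8.91, 8.62 and 8.81 in vehicle muscle at day 7. C1qb (1370215_at) had 7.69, 8.39 and 8.60 in nandrolone and 7.63, 7.80 and 7.35 in vehicle muscle at day 35, against 7.61, 8.34 and 9.56 in nandrolone and 8.06, 8.10 and 8.29 in vehicle muscle at day 7. C1qc (1373025_at) had 7.98, 8.28 and 9.01 in nandrolone and 8.05, 7.80 and 7.18 in vehicle muscle at day 35, against 7.58, 8.14 and 9.48 in nandrolone and 8.04, 8.31 and 8.39 in vehicle muscle at day 7. In each chain the third array was the highest of its nandrolone group on both days, and between days the nandrolone groups overlapped. The changes between days ran from -0.28 to 0.04 under nandrolone and from -0.58 to -0.49 under vehicle, and none passed the test.

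Among adhesion molecules, adaptors and pattern receptors, all 6 tested members had a lower mean at day 35 under each treatment, with medians of -0.45 under nandrolone and -0.67 under vehicle. Of all probe sets, 51.1% were lower under nandrolone and 50.4% under vehicle. Besides Tyrobp the 6 were Itgb2, the shared beta chain of leukocyte integrins, Fcer1g, the common Fc receptor gamma chain, Cd14, the lipopolysaccharide co-receptor, and the Toll-like receptors Tlr2 and Tlr4. Nandrolone day 7 replicate 3 was the highest of its group in all 6, and part of the nandrolone direction rested on it. Replicates 1 and 2 of that group had 7.40 and 7.42 for Cd14, against a nandrolone day 35 mean of 7.48. For Fcer1g they had 8.90 and 9.27, against 9.13. Tlr4 (1387982_at), the lipopolysaccharide receptor, had 6.35, 6.15 and 6.59 in nandrolone and 5.52, 5.87 and 5.50 in vehicle muscle at day 35, against 6.27, 6.62 and 6.96 in nandrolone and 6.21, 6.24 and 6.24 in vehicle muscle at day 7. Tlr2 (1392280_at), the receptor for bacterial lipoproteins, had 5.92, 5.39 and 5.76 in nandrolone and 5.55, 5.50 and 4.92 in vehicle muscle at day 35, against 5.61, 6.24 and 6.97 in nandrolone and 5.59, 5.59 and 5.90 in vehicle muscle at day 7. For Tlr2 the vehicle days were parted by a gap narrower than the spread within the day 35 group.

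The oxidase, lysosome and antigen presentation members had a median change of -0.11 under nandrolone and -0.43 under vehicle. Cybb, the catalytic subunit of the phagocyte oxidase, differed by -1.03 ± 0.43 (SE) under vehicle (limma adjusted p 0.169) and its partner Cyba by -0.52 ± 0.32 (SE, limma adjusted p 0.351). Cd74, the invariant chain of MHC class II, differed by -0.03 ± 0.37 (SE) under nandrolone and -0.05 ± 0.37 (SE) under vehicle. Ctss, the lysosomal protease cathepsin S, and Laptm5, a lysosomal membrane protein of blood cells, differed by -0.20 and -0.33 under vehicle.

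Of the cytoskeletal and tetraspanin members, Cd53, a leukocyte tetraspanin, differed by -1.29 ± 0.44 (SE, limma adjusted p 0.106) and Coro1a, an actin-binding protein of leukocytes, by -1.01 ± 0.33 (SE, limma adjusted p 0.0914) under vehicle. Lcp1, the leukocyte actin bundler plastin, differed by -0.75 under vehicle, Cd37, a tetraspanin of lymphocytes and myeloid cells, by -0.28, and Arhgdib by -0.09. Lgals3, galectin-3, which phagocytes secrete, had 9.17, 9.61 and 12.42 in nandrolone and 9.29, 8.96 and 8.58 in vehicle muscle at day 35, against 9.96, 9.21 and 10.91 in nandrolone and 9.12, 9.31 and 9.47 in vehicle muscle at day 7. One nandrolone day 35 array, the third, was far above the others.

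The members below the filter are given as levels only. Itgam (1388046_at), CD11b, the alpha chain of the Mac-1 integrin, had 4.61, 5.56 and 4.75 in nandrolone and 4.50, 4.37 and 4.17 in vehicle muscle at day 35, against 4.48, 5.33 and 6.21 in nandrolone and 4.62, 5.22 and 4.89 in vehicle muscle at day 7. Cx3cr1 (1369527_at), the fractalkine receptor, had 4.88, 5.33 and 4.21 in nandrolone and 5.11, 5.16 and 4.37 in vehicle muscle at day 35, against 5.48, 5.27 and 4.90 in nandrolone and 4.51, 4.55 and 4.61 in vehicle muscle at day 7. A signal of 0 has a level of 4 before normalisation, so these probe sets, and C3ar1 at a mean of 5.15, were near the bottom of the scale.

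Nandrolone against vehicle at day 35 asks whether the androgen altered the markers in muscle denervated for 35 days. None of the 31 members passed the test, against 0% of all probe sets (limma), and 6 were higher at an unadjusted p under 0.05, against 3.52% of all. The mean was higher under nandrolone in 29 of the 31, against 45.2% of all probe sets, with a median log2 difference of 0.54 against -0.04 over all. Single arrays moved these values: without nandrolone day 35 replicate 3 the median was 0.29 and 3 members were higher at an unadjusted p under 0.05, against 2.83% of all probe sets in that fit, and without nandrolone day 7 replicate 3 there were 13, against 3.82%. In 11 of the 31, every nandrolone array lay above every vehicle array, against 4.33% of all probe sets.

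The 11 were Cd68, Csf1r, Aif1, Fcer1g, Cd14, Ccl2, Cybb, Tlr4, Adgre1, Cd53 and Coro1a. The gap was narrow in Aif1, with a lowest nandrolone level of 6.793 and a highest vehicle level of 6.790. It was also narrow in Cd68 (6.817 and 6.813) and Adgre1 (6.143 and 6.104). Ccl2 was 1.40 ± 0.45 (SE) higher under nandrolone, with an unadjusted limma p of 0.00827 and an adjusted p of 0.562. Tlr4 was 0.73 ± 0.22 (SE) higher, with an unadjusted limma p of 0.00584 and an adjusted p of 0.562. Csf1r was 0.70 ± 0.25 (SE) higher, with an unadjusted limma p of 0.0164 and an adjusted p of 0.562. At 3 arrays against 3, an exact two-sided permutation test of a single gene cannot go below 0.1. Cd163 and Cd37 were the members with a lower mean under nandrolone, by 0.11 and 0.09 on the log2 scale.

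Nandrolone against vehicle at day 7 asks the same in freshly denervated muscle. None of the 31 members passed the test, against 0% of all probe sets (limma), and none had an unadjusted p under 0.05, against 1.78% of all. The mean was higher under nandrolone in 26 of the 31, against 49.4% of all probe sets, with a median difference of 0.18 against -0.00 over all. That direction rested on nandrolone day 7 replicate 3: without it the mean was lower under nandrolone in 26 of the 31, against 48.4% of all probe sets in that fit, with a median of -0.29. Tlr4 was the one member whose groups did not overlap, 1 of 31, against 3.9% of all probe sets higher in that way, and its difference was 0.39 ± 0.22 (SE). Averaged over the days, nandrolone was higher in 30 of 31 members, against 45.6% of all probe sets, with a median of 0.40. None passed the test, against 0% of all probe sets (limma), and 3 had an unadjusted p under 0.05, against 2.09% of all higher. The interaction of nandrolone and day called no member, against 0% of all probe sets (limma), with an unadjusted p under 0.05 for Ccl2 alone, against 4% of all. Without nandrolone day 7 replicate 3, 1 member was higher at an unadjusted p under 0.05 averaged over the days, against 1.26% of all probe sets, and 10 in the interaction, against 2.51%. The mean averaged over the days was then higher under nandrolone in 24 of the 31, against 47.1% of all, with a median of 0.17. With replicate 3 of both nandrolone groups left out, it was higher in 17 of the 31, against 51.3% of all, with a median of 0.03.

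Single arrays carried much of the nandrolone groups' means. Nandrolone day 7 replicate 3 was the highest of its group in 30 of the 31 tested members, against 28.9% of all probe sets, and stood a median of 1.33 above the mean of its group's other arrays, between 0.30 and 2.27 by member. Nandrolone day 35 replicate 3 was the highest in 26 of the 31, against 33.6% of all probe sets, by a median of 0.84, between 0.02 and 3.03. The median centred level of the members was -0.35, -0.17 and 0.51 in nandrolone and -0.45, -0.51 and -0.67 in vehicle muscle at day 35, against -0.18, 0.09 and 1.25 in nandrolone and 0.10, -0.01 and 0.31 in vehicle muscle at day 7. The third array was the highest of each nandrolone group, and the vehicle groups did not overlap.

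**Figure D4:**
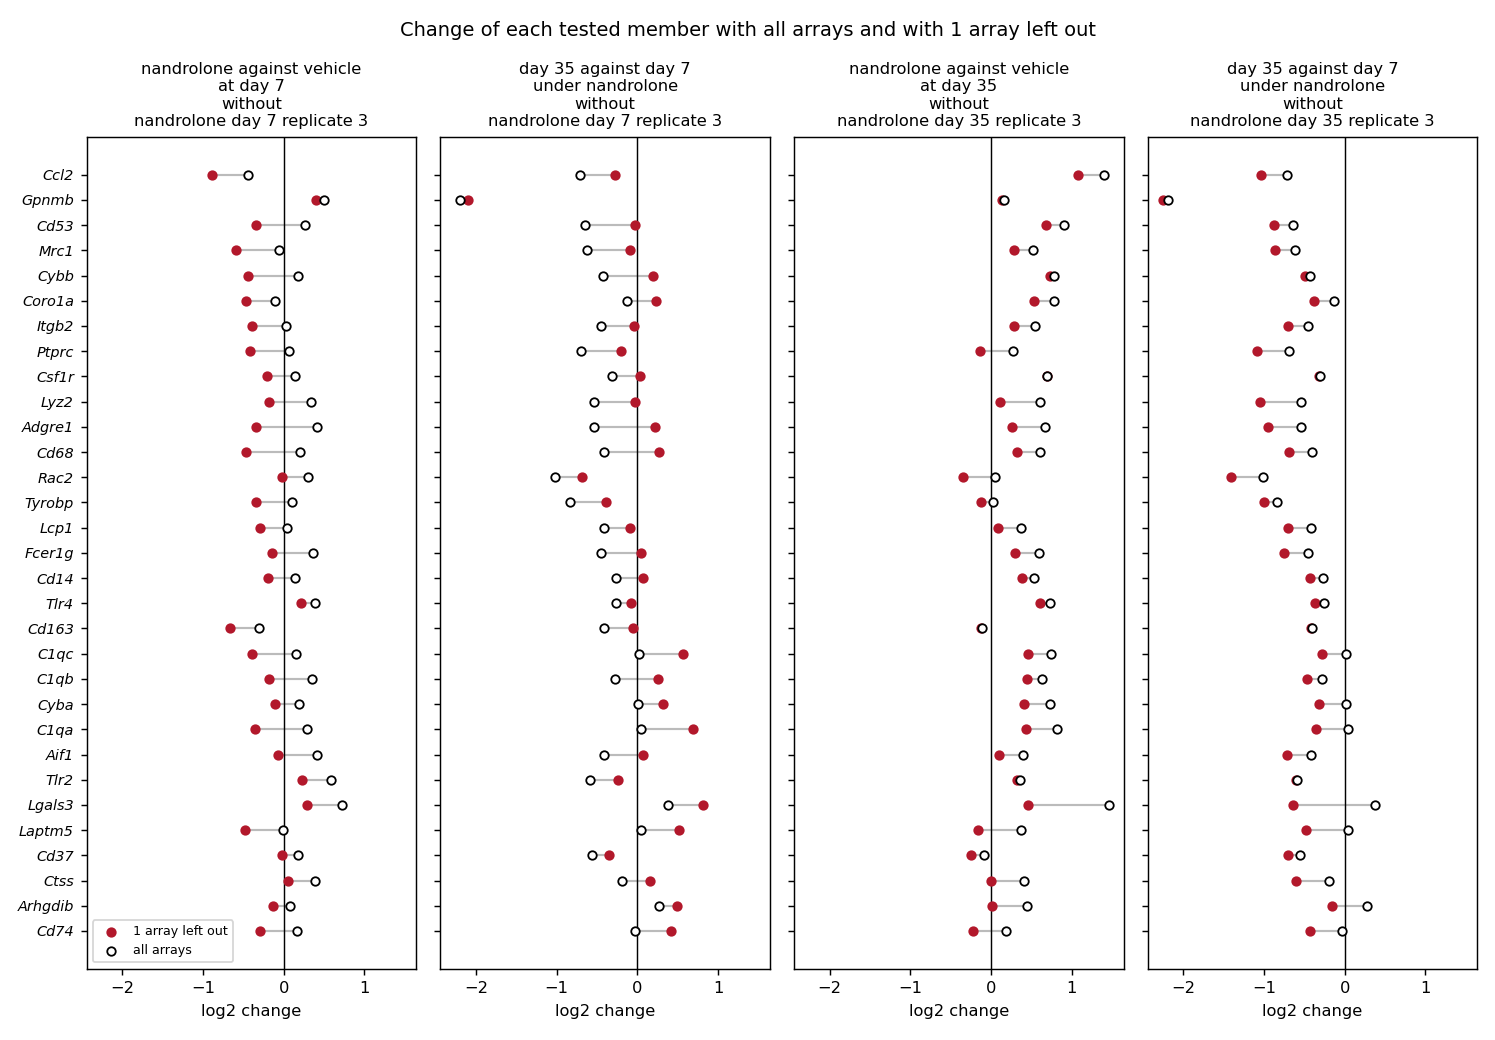
Log2 change of each tested member with all 12 arrays (open points) and with 1 array left out (filled points), for nandrolone against vehicle on each day and day 35 against day 7 under nandrolone. Without nandrolone day 7 replicate 3, the median difference at day 7 is -0.29, and with all arrays it is 0.18.

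Without nandrolone day 7 replicate 3, no member passed the test between days under nandrolone, against 0.177% of all probe sets called lower in that fit, with Gpnmb at -2.10 with a limma adjusted p of 0.0857. The interaction then had a median of 0.79 and no member past the adjusted threshold. Under vehicle, where no array had been left out, 6 members then fell with time, against 1.93% of all probe sets called lower, adding Csf1r, Mrc1, Cybb and Cd53.

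Without nandrolone day 35 replicate 3, 24 of the 31 nandrolone differences at day 35 were above 0, against 49.4% of all probe sets in that fit. Lgals3 differed by 1.46 ± 0.66 (SE) with all arrays and by 0.45 ± 0.38 (SE) without that array, while Csf1r was 0.70 either way. Day 35 against day 7 under nandrolone then had all 31 members below 0, with a median of -0.64 and 0 past the limma test, 8 of them at an unadjusted p under 0.05, against 6.44% of all probe sets lower in that way. With both arrays left out, 14 members fell with time under vehicle, against 5.17% of all probe sets called lower in that fit, and 11 over both treatments, against 5.89%. The median nandrolone difference averaged over days was then 0.03. In a fit of the 2 vehicle groups alone, 15 of the 31 fell with time, against 6.19% of all probe sets called lower there.

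Other measures moved with these arrays. Nandrolone day 35 replicate 3 had a median deposited signal of 111 and the other 11 arrays 44.8 to 63.5. Its mean correlation with its group was 0.900, while the other arrays ranged from 0.927 to 0.977. It also stood highest of all arrays in median centred level for the Schwann cell list (2.86), the adipocyte list (1.89), the smooth muscle and pericyte list (1.76) and the fibroblast list (1.24). Nandrolone day 7 replicate 3 had a level of 0.76 for the fibroblast list and 0.91 for MHC class II. The 3′ to 5′ signal ratio of beta-actin, a measure of RNA integrity, was 1.90 to 2.57 in nandrolone and 2.68 to 3.71 in vehicle muscle at day 35, against 2.08 to 2.79 in nandrolone and 2.11 to 2.81 in vehicle muscle at day 7. The part of these measures in the members' differences was not tested.

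Blood and lymphocyte lists moved with the vehicle time difference. The erythrocyte list had 3 tested of 7 genes, all 3 lower at day 35 under vehicle, with summed signals of 1397 to 2846 at day 35 and 4024 to 6399 at day 7. Alas2, the erythroid enzyme of haem synthesis, fell by 1.35 ± 0.27 (SE) on the log2 scale under vehicle, with a limma adjusted p of 0.0176. The lymphocyte list had 6 tested of 23 genes, all 6 lower under vehicle. Its signals, summed over the 19 genes on the array, with those below the filter, were 434.8 to 569.9 at day 35 and 613.6 to 793.5 at day 7 under vehicle. Zap70, a T cell receptor kinase, fell by 0.89 ± 0.24 (SE), with a limma adjusted p of 0.0481, while the defining lymphocyte markers Cd3e, Cd8a and Cd79b lay below the filter, though none at 0. The neutrophil markers S100a8 and S100a9 and the mast cell receptor Kit also lay below it. Other genes of those lists were above it: 3 of 8 mast cell genes, Cpa3, Cma1 and Tpsb2, and the neutrophil gene Lcn2. The 3 mast cell genes had a median change of 0.13 between days under vehicle, and none was called. The part of these cells in the members' changes was not tested.

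**Figure D5:**
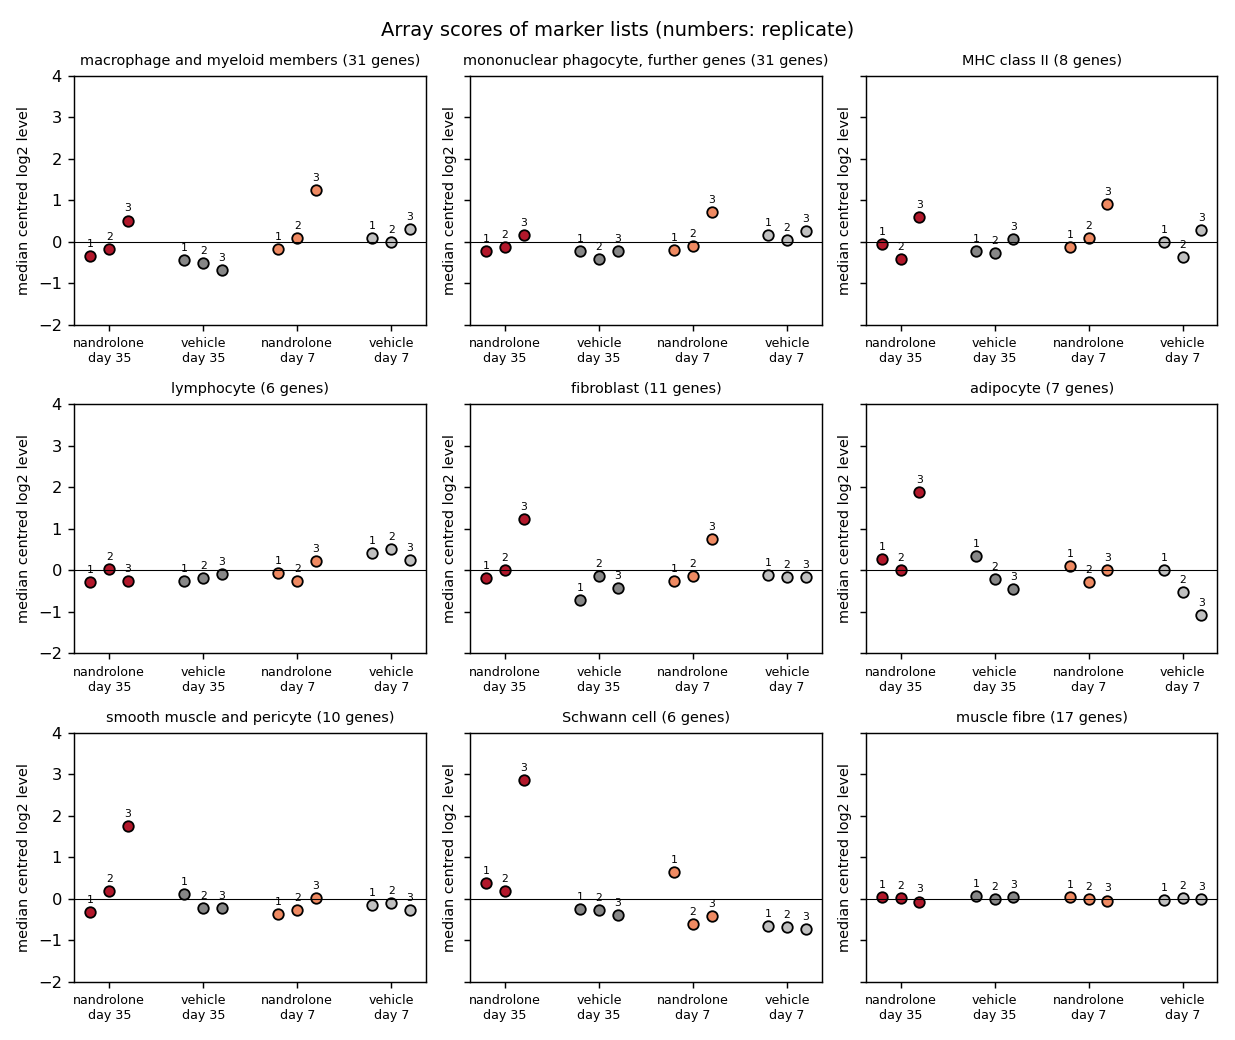
Median centred log2 level of marker lists in each array, numbered by replicate, with groups from nandrolone day 35 and vehicle day 35 to nandrolone day 7 and vehicle day 7. Nandrolone day 35 replicate 3 is the highest point of its group for the Schwann cell, adipocyte and smooth muscle lists, at 2.86, 1.89 and 1.76.

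Ckm, muscle creatine kinase, identified the tissue as muscle, between 13.84 and 14.05 on every array. Its mean stood at percentile 99.96 of all probe sets, the top of the normalised scale, where levels are set by the normalisation, so Ckm does not measure fibre content. The muscle fibre list had a median change of 0.03 under nandrolone and 0.05 under vehicle. Under vehicle 2 of its 17 tested genes were called, Myh1, a fast myosin heavy chain, at -1.11 ± 0.17 (SE, limma adjusted p 0.00517) and Eno3, muscle enolase, at 0.41 ± 0.08 (SE, limma adjusted p 0.0178). The list's summed signal was 187200 to 208900 in vehicle muscle at day 35 and 193800 to 203000 at day 7.

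Further genes of the macrophage programme, from lists other than the member list, were counted in the same fit. Among 48 further mononuclear phagocyte genes, 31 were tested, and 0 changed under vehicle by the limma test, against 5.61% of all probe sets. At an unadjusted p under 0.05, 11 were lower, against 10.8% of all, and 28 of the 31 means were lower at day 35, against 50.4% of all, with a median of -0.46. Over both treatments 2 of the 31 fell, a share close to the 6.07% of all probe sets called lower. Fcgr1a, the high-affinity IgG receptor, fell by 0.61 ± 0.14 (SE, limma adjusted p 0.0151), and Clec4a3, a C-type lectin, fell by 1.02 ± 0.31 (SE, limma adjusted p 0.0487). The phagocyte oxidase and lysosome list had 19 tested of 24, with a median of 0.02 under vehicle. There Ctsl, the protease cathepsin L, fell by 0.96 ± 0.25 (SE, limma adjusted p 0.0429). Over both treatments Ctsl changed by -0.93 ± 0.18 (SE, limma adjusted p 0.00623). Psap, the precursor of the saposins, rose there by 0.59 ± 0.13 (SE, limma adjusted p 0.0137) and Ctsh, cathepsin H, by 0.47 ± 0.13 (SE, limma adjusted p 0.0362).

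The ligands and receptors that recruit and maintain macrophages had 15 tested of 32 genes, with 10 means lower at day 35 under vehicle. Arg1, arginase 1, grouped with them as a product of alternatively activated macrophages, rose by 1.52 ± 0.37 (SE, limma adjusted p 0.0345) under vehicle. Ccl7, a chemokine closely related to Ccl2, differed by -1.50 ± 0.57 (SE, limma adjusted p 0.133). Spp1, osteopontin, differed by -1.60 ± 0.72 (SE, limma adjusted p 0.203). Complement genes beyond C1q had 7 tested of 16, and the MHC class II list, which includes the member Cd74, had 8 of 8. Neither list had a called gene in any of the 7 comparisons by limma, with 9 of 49 complement and 2 of 56 MHC class II results at an unadjusted p under 0.05, against 12.2% of all probe sets' results in those 7 comparisons.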

How the data were processed

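Gastrocnemius RNA of 12 samples in 4 groups of 3 was hybridised to 1-colour Affymetrix arrays. The values are intensity signals on a linear scale that the authors deposited, made with MAS5 per the submitters' processing notes; its version and scaling, and how perfect-match and mismatch probes were weighed, are not given in the sources used here. Another deposited file, with 12 columns SAMPLE 1 to 12 that no label ties to samples, was not used.

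Groups came from the sample titles. Of 31099 probe sets, 57 controls were left out. Signals plus 16 were log2 transformed and quantile normalised over 31042 probe sets, and the 40% with the lowest mean were dropped (level under 5.56), leaving 18625. In the platform annotation, 20826 of the 31042 carry a single gene symbol, 436 carry more than 1 and 9780 carry no symbol. Low signals near the array's floor compress fold changes, and the pseudocount understates changes of dim genes. limma 3.58.1 in R 4.3.3 with the data.table package (1.17.8) fitted 4 group means with a mean-variance trend and 8 residual degrees of freedom. The 7 contrasts were adjusted by Benjamini-Hochberg at 0.05 over all tested probe sets. Where a gene had several probe sets, the one with the highest mean was used; 29 members had 1, and Aif1, Ptprc, Laptm5, Cyba and Cybb had 2, of which no second one was called. A list's score is the median over its tested genes of the level minus the gene's mean over all arrays. The fit was tested on simulated data.

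The members and the 15 other lists were chosen with earlier results of these data known. Array values are printed for members called in any comparison, lineage markers and, since fewer than 6 members were called, the 3 members of smallest p in each pairwise comparison, with Lgals3 added after its values were seen. Other lists are given by counts, with called genes and at most 3 others named. Samples with the same replicate number deviated together between the nandrolone days (correlations 0.162, 0.265 and 0.416), and not in every pair of the other comparisons. Alternatives were the deposited scale, median centring, pseudocounts of 1 and 64, no filter and a 60% filter, no trend, array weights, a replicate block, fits of the compared groups alone, the mean over probe sets, an adjusted p of 0.10, each array left out and replicate 3 of both nandrolone groups left out. Promoters of 24 members in RefSeq (GRCr8) were searched for 6 motifs on both strands.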

Additional observations from a re-analysis of the deposited data

How the results depend on the processing

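The directions of the members' median change held under the alternatives run, except at day 7 between nandrolone and vehicle and between days under nandrolone. Leaving out single arrays gave medians of -0.29 to 0.43 for nandrolone against vehicle at day 7, -0.69 to 0.051 for day 35 against day 7 under nandrolone, and 0.29 to 0.72 for nandrolone against vehicle at day 35. Leaving out replicate 3 of both nandrolone groups gave -0.29 at day 7. No alternative called a member between nandrolone and vehicle or in the interaction.

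Day 35 against day 7 under vehicle called 2 members, against 0 on the deposited scale (limma adjusted p 0.052 for Ccl2 and 0.0587 for Gpnmb), 14 with array weights, 15 in the 2 vehicle groups alone, 5 at an adjusted p of 0.10, 14 without both of those arrays and 1 to 6 without single arrays. Under nandrolone, 1 member was called, against 0 on the deposited scale, with no filter, no trend, array weights, a replicate block, the 2 nandrolone groups alone or without both arrays, and 0 to 1 without single arrays. Over both treatments, 5 were called, against 2 on the deposited scale or with no filter, 3 with a pseudocount of 64 or no trend, 14 with array weights, 10 at an adjusted p of 0.10, 11 without both arrays and 2 to 10 without single arrays. Of all probe sets, 5.17% were called lower under vehicle without both arrays, and 6.19% in the 2 vehicle groups alone. Without nandrolone day 7 replicate 3, where 6 members were called under vehicle, the share was 1.93%. Over both treatments, 5.89% were called lower without both arrays. In the other alternatives the calls over all probe sets, given below as ranges, moved as well. The cause was not tested.

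The replicate block added Coro1a under vehicle, and over both treatments called 7 members in place of 5, adding Mrc1, Ptprc and Cd53 and dropping Csf1r (limma adjusted p 0.0503); it changed no other call between pairs of groups except Gpnmb under nandrolone. Cd163 between nandrolone and vehicle at day 35 turned to 0.26 on the deposited scale and ran from -0.30 to 0.10 without single arrays, against -0.11 in the reported fit. Ptprc there turned to -0.12 with array weights and -0.13 without both arrays, and ran from -0.13 to 0.62 without single arrays, against 0.27 in the reported fit. Over all probe sets, the calls ran from 178 to 5274 under vehicle (1045 in the reported fit), 0 to 293 under nandrolone (126) and 953 to 4570 over both (2338). The deposited scale gave 148 higher and 44 lower under vehicle, against 641 higher and 404 lower in the reported fit, 15 higher and 0 lower under nandrolone, against 51 and 75, and 670 and 283 over both, against 1208 and 1130. Median centring gave 32 higher and 74 lower under nandrolone.

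With 3 arrays a group, a median standard error of 0.37 on the log2 scale limits what could be detected between 2 groups, and probe sets near the bottom of the scale were not tested.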

Other observations

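Lists of other cell types differed between groups in ways the sections above do not give. Cnp, an enzyme of myelinating glia, rose by day 35, by 1.87 ± 0.29 (SE, limma adjusted p 0.0217) under nandrolone and 1.82 ± 0.29 (SE, limma adjusted p 0.0069) under vehicle, 1 of 6 tested Schwann cell genes called in each. Postn, periostin of the extracellular matrix, fell by 2.66 ± 0.72 (SE, limma adjusted p 0.0491) under vehicle, the 1 fibroblast gene of 11 called there. Lpl, lipoprotein lipase, of the adipocyte list, fell by 0.99 ± 0.18 (SE, limma adjusted p 0.0102) under vehicle. Over both treatments Cd5, a T cell surface protein, fell by 1.01 ± 0.24 (SE, limma adjusted p 0.0162), Dpt, dermatopontin of the fibroblast list, rose by 0.78 ± 0.22 (SE, limma adjusted p 0.0351) and Lmod1, leiomodin of smooth muscle, rose by 0.85 ± 0.21 (SE, limma adjusted p 0.0225). No endothelial, neutrophil or mast cell gene passed limma in any of the 7 comparisons, with 3 of 63, 0 of 7 and 2 of 21 results at an unadjusted p under 0.05, against 12.2% of the results of all probe sets in those comparisons.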
